A study of Mus musculus with 203 samples.

Results

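The genes described here carry the IL4 signal from the macrophage surface to the nucleus or restrain it: the receptor chains Il4ra, Il2rg and Il13ra1, the kinases Jak1 and Jak3, the transcription factor Stat6, the adaptor Irs2, and the feedback inhibitors Socs1, Socs3 and Cish. They were taken by gene symbol, and all 10 were found among the 25094 genes of the RAW cell table and among the 16478 genes of the table of bone marrow-derived macrophages (BMDMs). The BMDM table, from WT and Gps2 KO macrophages with and without IL4, holds the authors' own comparisons and no value per library, so BMDMs were not analysed here. The measurements come from RNA-seq of RAW264.7 cells (RAW cells), a mouse macrophage line of BALB/c origin, in 4 groups of 4 libraries: shGFP and shKDM1A cells, each untreated or treated with 20 ng/ml of IL4 for 6 h. Both lines were transduced with lentivirus and selected with puromycin. shGFP cells carry a control hairpin, and shKDM1A cells carry a single hairpin against Kdm1a, which encodes a histone lysine demethylase, so an effect of the knockdown cannot be told apart from one of that hairpin or of that stable line. The methods call the replicates of the study biological in general, without saying what separated the libraries of a group here, so the p-values measure the spread between these libraries, which may be partly technical.

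IL4 binds the IL4 receptor alpha chain (Il4ra), which then pairs with the common gamma chain (Il2rg) in the type I receptor or with the IL13 receptor alpha 1 chain (Il13ra1) in the type II receptor. JAK kinases bound to these chains, JAK3 only to the common gamma chain, phosphorylate the receptor, where STAT6 docks and is phosphorylated in turn. STAT6 dimers enter the nucleus to activate genes of alternative macrophage activation, while IRS2 couples the receptor to PI3 kinase. SOCS1, SOCS3 and CISH are SH2 domain proteins of 1 family that are made in response to cytokines and dampen JAK-STAT signalling.

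The libraries held 17554721 to 27782568 tags, and the totals of the 4 groups overlapped, although the median of the IL4-treated shKDM1A libraries was the lowest at 18670911 tags. Values are on a log2 scale as the authors deposited them from a transformation that no source names. They appear moderated for weakly expressed genes, so differences understate the change of such genes. Kdm1a, the targeted gene, had values from 11.07 to 11.23 in the 8 shGFP libraries and from 10.23 to 10.36 in the 8 shKDM1A libraries, a difference of -0.88 (SE 0.03) without IL4 and -0.79 (SE 0.03) with IL4. Of 8 macrophage markers 7 passed the filter on low values, Mertk being the exception. These markers moved in both directions, and their part in the results was not tested. With IL4, 2 of the 7 were higher and 2 lower in shGFP cells, among them Adgre1 (1.24) and Lyz2 (-0.53), and 3 were higher and 2 lower in shKDM1A cells. With the knockdown 5 were higher and 2 lower in each state, with differences from -0.45 (Fcgr1) to 0.41 (Itgam) without IL4 and from -0.44 (Adgre1) to 0.68 (Lyz2) with IL4. By the test given below, 26.9% of all genes tested changed with IL4 in shGFP cells and 27.1% in shKDM1A cells. With the knockdown 38.2% changed without IL4 and 40.7% with IL4. Of 23 markers of T and NK cells, B cells, neutrophils, fibroblasts and epithelial cells 1 passed, a neutrophil gene whose highest value was 1.26. In every library 13 of them were at 0. A 0 is not the lowest value on this scale, which reached -2.27. Among the markers that did not pass, Cd3e had a mean of -2.27 in untreated shGFP cells. In bulk RNA, fewer cells of a state and less RNA per cell cannot be told apart.

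Per kb of transcript, Stat6 was the most abundant of the 9 genes that passed the filter in every group and Cish the least. In untreated shGFP cells the mean log2 levels per kb ran from 10.13 for Stat6 through 9.17 for Jak1, 8.91 for Il2rg, 7.61 for Il13ra1, 6.87 for Socs3, 6.17 for Jak3 and 5.38 for Socs1 to 3.30 for Il4ra and 2.37 for Cish, and no neighbours in this order overlapped in their libraries. The chain that binds IL4 was thus far below both chains it pairs with, and Il4ra lay above only 13.4% of the tested genes per kb against 74.1% for Il2rg and 44.8% for Il13ra1. The order changed in 1 place between the lines. In untreated shKDM1A cells Il2rg, at 9.38, passed Jak1, at 9.23, without overlap, whereas with IL4 the libraries of these 2 genes overlapped in shKDM1A cells, as did those of Il13ra1 and Socs3. Irs2, on chromosome 8 of mm9 from 10984681 to 11008929 on the minus strand, was listed at 0 in all 16 libraries. This was true of 33.8% of the genes in the table and of 0 of 18 housekeeping genes looked up. Housekeeping genes are active in nearly every cell, so they cannot show why Irs2 was at 0. Nor is 0 the lowest value on this scale, since Irs1, for example, had a mean of -2.09 in untreated shGFP cells. Irs2 enters no comparison below.

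**Figure D1:**
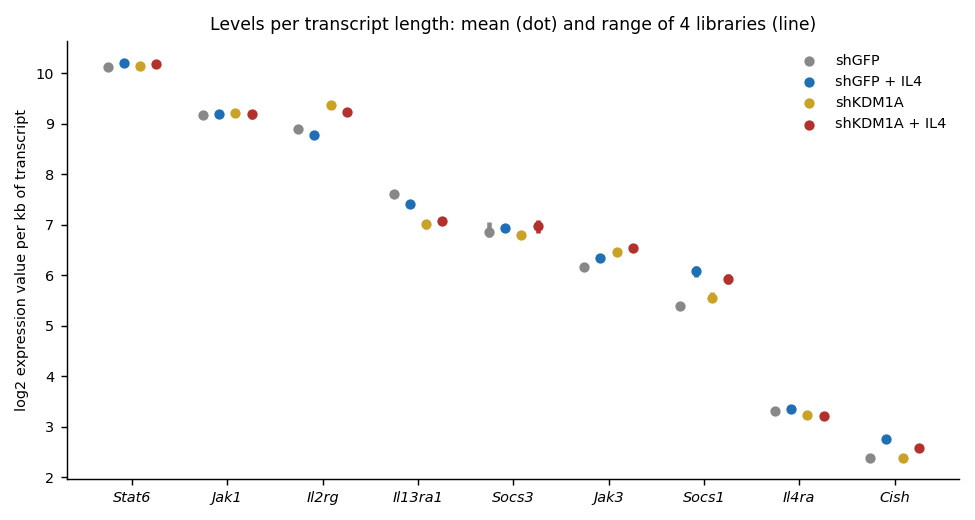
Mean log2 expression value per kb of transcript (y axis, dots) of 9 genes in the 4 groups, with a line over the range of the 4 libraries. The levels of shGFP cells run from 10.13 for Stat6 to 2.37 for Cish, and Il2rg stands higher in both shKDM1A groups than in both shGFP groups.

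IL4 for 6 h raised the feedback inhibitors Socs1 and Cish in both lines, and it lowered Il2rg in both. In shGFP cells it also raised Jak3 and Stat6 and lowered Il13ra1. In the KDM1A knockdown, Il2rg and Jak3 were higher and Il13ra1 was lower in shKDM1A cells with or without IL4. The rise of Socs1 and Cish with IL4 was smaller in shKDM1A cells. Each comparison came from a limma fit over 12905 genes with Benjamini-Hochberg adjustment, at an adjusted p under 0.05. IL4 in shGFP cells changed 6 of the 9 genes tested, 4 higher and 2 lower, where 26.9% of all genes tested passed (13.1% higher, 13.7% lower). In shKDM1A cells IL4 changed 4 of 9, 3 higher and 1 lower, against 27.1% of all genes (13.6% higher, 13.5% lower). The knockdown changed 4 of 9 without IL4, 3 higher and 1 lower, against 38.2% of all genes (19.7% higher, 18.4% lower). With IL4 it changed 6 of 9, 2 higher and 4 lower, against 40.7% (20.9% higher, 19.8% lower). The median difference of the 9 genes was 0.07, 0.06, 0.02 and -0.01 in these 4 comparisons, while the medians over all genes tested were between -0.0027 and -0.0005. The comparisons share libraries in pairs, so they are not independent of each other.

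**Figure D2:**
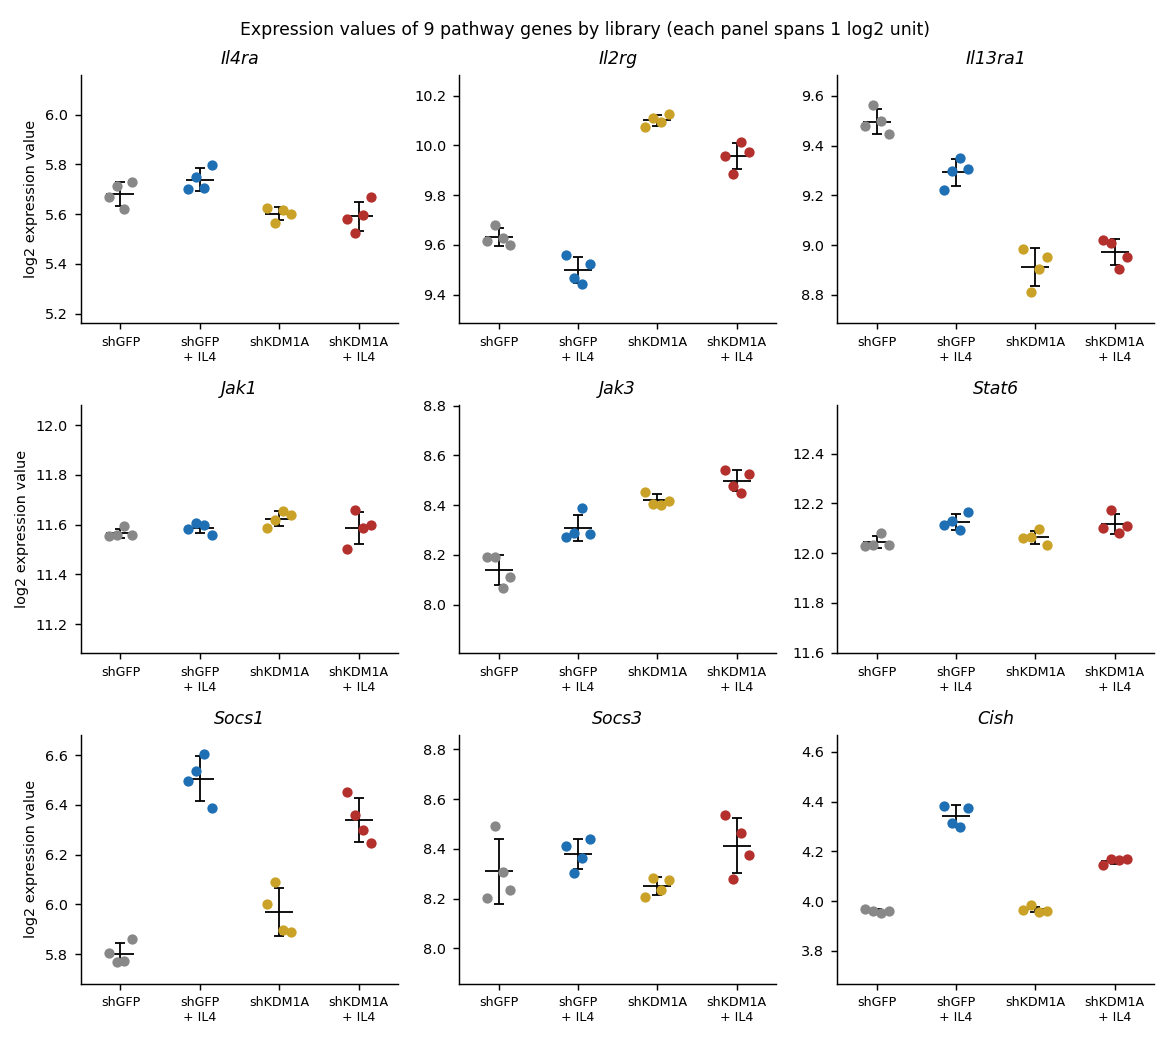
Log2 expression value (y axis, 1 log2 unit in each panel) of 9 genes in every library, by group, with the group mean and SD (n = 4). Socs1 and Cish rise with IL4 in both lines, Il2rg and Jak3 are higher in shKDM1A cells and Il13ra1 is lower there, while the groups of Jak1 overlap.

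Il4ra (chromosome 7 of mm9, 132695785 to 132722988, plus strand), the chain that binds IL4, had log2 values of 5.67, 5.71, 5.62 and 5.73 in untreated shGFP libraries and 5.70, 5.75, 5.70 and 5.80 with IL4, and these groups overlapped. Its difference with IL4 was 0.06 (95% CI -0.01 to 0.12, limma adjusted p = 0.228) in shGFP cells and -0.01 (95% CI -0.08 to 0.06, limma adjusted p = 0.860) in shKDM1A cells. In shKDM1A cells its values were 5.63, 5.57, 5.61 and 5.60 untreated and 5.58, 5.52, 5.60 and 5.67 with IL4. All 4 IL4-treated shKDM1A libraries were below all 4 IL4-treated shGFP libraries, and Il4ra was lower there by a log2 difference of -0.15 (SE 0.03, limma adjusted p = 0.00145). Without IL4 the difference was -0.08 (SE 0.03, limma adjusted p = 0.0559), with overlapping libraries. That difference passed without shGFP replicate 3 (limma adjusted p = 0.0240), under quantile normalization (-0.12, limma adjusted p = 0.00583), with a replicate block (0.0393) and with only the compared groups in the model (0.0391), so Il4ra is not shown to be lower with IL4 alone.

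Il2rg (chromosome X, 98459724 to 98463594, minus strand) encodes the common gamma chain, shared with the receptors of IL2, IL7, IL9, IL15 and IL21. Its values were 9.62, 9.68, 9.63 and 9.60 in untreated shGFP libraries and 9.56, 9.47, 9.44 and 9.52 with IL4. In shKDM1A libraries they were 10.07, 10.11, 10.10 and 10.13 untreated and 9.96, 9.89, 10.01 and 9.97 with IL4. The 4 groups did not overlap at any point, with both shKDM1A groups on top and the IL4-treated group the lower of each line. The fall with IL4 was -0.13 (SE 0.03, limma adjusted p = 0.00316) in shGFP cells and -0.14 (SE 0.03, limma adjusted p = 0.00153) in shKDM1A cells. The rise with the knockdown was 0.47 (SE 0.03, limma adjusted p = 2.02e-09) without IL4 and 0.46 (SE 0.03, limma adjusted p = 2.73e-09) with IL4. The IL4 effects of the 2 lines differed by -0.01 (95% CI -0.10 to 0.08, limma adjusted p = 0.906). In the GENCODE annotation of this build, 30.5% of the exon bases of Il2rg are shared with Gm20489 on the same strand, and the share of reads from that model is unknown.

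Il13ra1 (chromosome X, 33652103 to 33711256, plus strand), which gives the type II receptor its second chain and also binds IL13, differed between the lines in the direction opposite to Il2rg. It had values of 9.48, 9.56, 9.50 and 9.45 in untreated shGFP libraries and 9.22, 9.30, 9.35 and 9.30 with IL4, all of the treated below all of the untreated. In shKDM1A libraries the values were 8.98, 8.81, 8.91 and 8.95 untreated and 9.02, 9.01, 8.90 and 8.95 with IL4. Every shKDM1A library was below every shGFP library, and within the knockdown line the groups overlapped. The knockdown lowered Il13ra1 by a log2 difference of -0.58 (SE 0.04, limma adjusted p = 3.74e-09) without IL4, a moderated fold of 0.667, and by -0.32 (SE 0.04, limma adjusted p = 5.01e-06) with IL4. In both states Il2rg was thus higher and Il13ra1 lower in shKDM1A cells. IL4 lowered Il13ra1 in shGFP cells (-0.20, SE 0.04, limma adjusted p = 0.000816), and the difference with IL4 in shKDM1A cells was 0.06 (95% CI -0.02 to 0.14, limma adjusted p = 0.303).

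Jak3 (chromosome 8, 74200282 to 74214476, plus strand), the kinase that binds the common gamma chain, had values of 8.19, 8.19, 8.07 and 8.11 in untreated shGFP libraries and 8.27, 8.29, 8.39 and 8.28 with IL4. In shKDM1A libraries it had 8.45, 8.40, 8.40 and 8.42 untreated and 8.54, 8.48, 8.45 and 8.52 with IL4. The untreated shGFP group was the lowest, and every shKDM1A library was above every shGFP library. IL4 raised Jak3 in shGFP cells by 0.17 (SE 0.03, limma adjusted p = 0.000891), whereas the difference in shKDM1A cells was 0.08 (95% CI 0.01 to 0.15, limma adjusted p = 0.0856), with overlapping libraries. The knockdown raised it by 0.28 (SE 0.03, limma adjusted p = 3.46e-06) without IL4 and by 0.19 (SE 0.03, limma adjusted p = 0.000196) with IL4. Of 5359 annotated exon bases Jak3 shares 404 with Insl3 on the same strand, whose values lay between 3.86 and 3.99, and 288 with Gm9933 on the opposite strand. Jak1 (chromosome 4, 100824579 to 100937887, minus strand), which serves many cytokine receptors, ranged only from 11.50 to 11.66 over the 16 libraries and passed in none of the comparisons. Its largest difference, between the untreated lines, was 0.06 (95% CI 0.0002 to 0.12, limma adjusted p = 0.108).

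Stat6 (chromosome 10, 127080042 to 127098043, plus strand), the factor that IL4 activates by phosphorylation, was nearly level at the RNA. Its values were 12.03, 12.03, 12.08 and 12.03 in untreated shGFP libraries and 12.11, 12.13, 12.09 and 12.17 with IL4. The treated libraries all lay above the untreated ones, and the difference of 0.08 (SE 0.02, limma adjusted p = 0.0168) passed the test. It did not pass without the IL4-treated shGFP replicate 4 (0.07, limma adjusted p = 0.0587). In shKDM1A libraries the values were 12.06, 12.06, 12.10 and 12.03 untreated and 12.10, 12.17, 12.08 and 12.11 with IL4, which overlap, and the difference was 0.05 (95% CI 0.0022 to 0.10, limma adjusted p = 0.119). The lines differed by 0.02 (95% CI -0.03 to 0.07, limma adjusted p = 0.564) without IL4 and by -0.01 (95% CI -0.06 to 0.04, limma adjusted p = 0.788) with IL4. Stat6 lay above 92.9% of the tested genes in level, and its exons share 40 bases with Nab2 on the opposite strand.

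**Figure D3:**
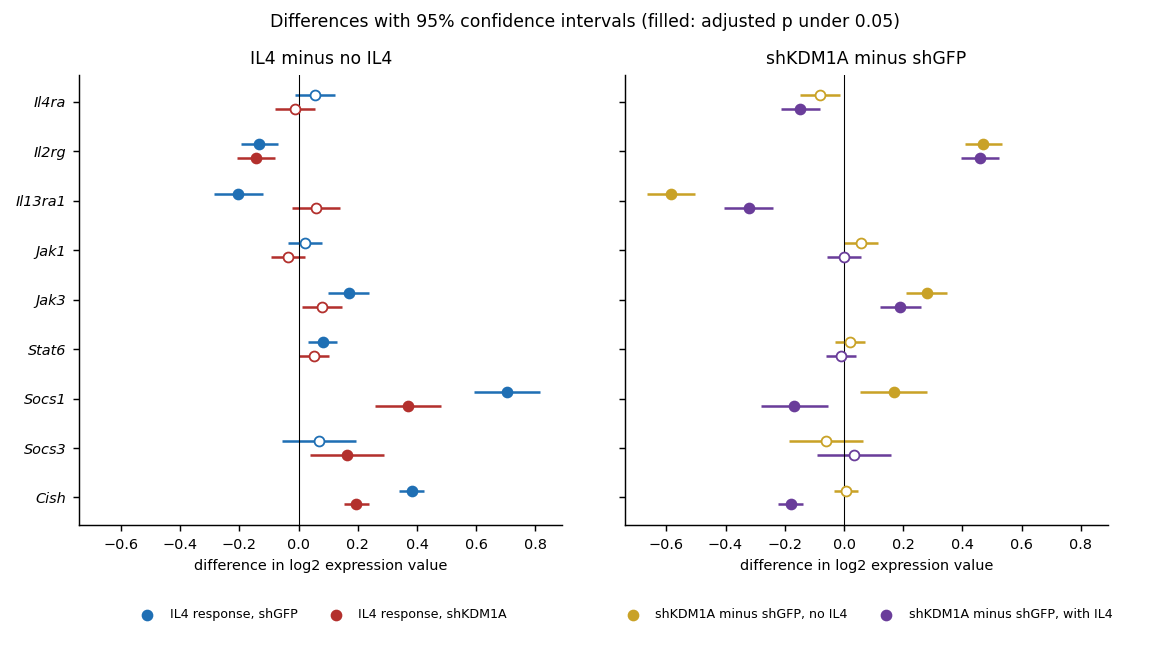
Differences in log2 expression value (x axis) of 9 genes, with 95% confidence intervals, for IL4 against no IL4 in each line (left) and for shKDM1A against shGFP cells in each state (right). Filled points passed the adjusted p. Socs1 has the largest IL4 response (0.71 in shGFP cells), and Il2rg (0.47) and Il13ra1 (-0.58) have the largest differences between the untreated lines.

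Socs1 and Cish had the largest differences with IL4 among the 9 genes in each line. Socs1 (chromosome 16, 10783902 to 10785629, minus strand), which inhibits JAK kinases directly, had values of 5.80, 5.77, 5.77 and 5.86 in untreated shGFP libraries and 6.50, 6.53, 6.60 and 6.39 with IL4. In shKDM1A libraries it had 6.00, 6.09, 5.90 and 5.89 untreated and 6.45, 6.36, 6.30 and 6.25 with IL4. The treated libraries were above the untreated ones in each line without overlap. The rise was 0.71 (SE 0.05, limma adjusted p = 3.03e-08), a moderated fold of 1.63, in shGFP cells, and 0.37 (SE 0.05, limma adjusted p = 5.42e-05), a moderated fold of 1.29, in shKDM1A cells. Between the lines the order of Socs1 crossed. It was higher in shKDM1A cells without IL4 (0.17, SE 0.05, limma adjusted p = 0.0190) and lower with IL4 (-0.17, SE 0.05, limma adjusted p = 0.0181), where the libraries overlapped. The first call was lost without the untreated shKDM1A replicate 2 (0.13, limma adjusted p = 0.0711) and under quantile normalization (0.13, limma adjusted p = 0.0800), and the second without the IL4-treated shGFP replicate 3 (-0.13, limma adjusted p = 0.0659) or the IL4-treated shKDM1A replicate 4 (-0.14, limma adjusted p = 0.0594).

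Cish (chromosome 9, 107198990 to 107205115, plus strand), which competes for phosphorylated receptor sites, had the lowest level per kb of the 9 genes and an SD within groups of 0.02, and since the values appear moderated at low levels, that spread is not comparable with those of the other genes. Its values were 3.97, 3.96, 3.95 and 3.96 in untreated shGFP libraries and 4.38, 4.31, 4.30 and 4.37 with IL4. In shKDM1A libraries they were 3.97, 3.98, 3.96 and 3.96 untreated and 4.14, 4.17, 4.16 and 4.17 with IL4. The untreated groups coincided, and every IL4-treated shKDM1A library lay between them and the IL4-treated shGFP libraries. The rise was 0.38 (SE 0.02, limma adjusted p = 2.71e-10) in shGFP cells and 0.19 (SE 0.02, limma adjusted p = 1.23e-06) in shKDM1A cells. The lines differed by 0.01 (95% CI -0.03 to 0.05, limma adjusted p = 0.817) without IL4 and by -0.18 (SE 0.02, limma adjusted p = 1.65e-06) with IL4. Cish was weakly expressed, above only 13.9% of the tested genes, and its exons share 479 and 261 bases with Gm17041 and Gm17040 on the opposite strand, which counting without strand does not separate.

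Socs3 (chromosome 11, 117827401 to 117830680, minus strand), best known as the inhibitor of IL6-type signalling, was the most variable. Its values were 8.20, 8.49, 8.31 and 8.23 in untreated shGFP libraries and 8.41, 8.30, 8.36 and 8.44 with IL4, and the difference was 0.07 (95% CI -0.06 to 0.19, limma adjusted p = 0.455). In shKDM1A libraries they were 8.21, 8.28, 8.23 and 8.27 untreated and 8.54, 8.28, 8.46 and 8.38 with IL4. These groups overlapped, and although the difference of 0.16 (SE 0.06, limma adjusted p = 0.0497) passed, it passed with only 1 of the 8 libraries left out in turn, over a range of 0.12 to 0.21. The call was also lost with a replicate block and with no filter on low values. Its spread within groups, an SD of 0.09, was larger than that of 97.2% of the tested genes, and that of Socs1, 0.08, was larger than that of 94.4%.

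STAT factors bind palindromes of TTC and GAA. The promoter windows of all 10 genes in RefSeq (GRCm38.p6, 250 bases before to 50 after the start) were searched for TTC followed by GAA with 4 free bases between them, the spacing that STAT6 prefers, and with 3 free bases, the spacing of most other STATs. Both patterns read the same on either strand. The 4-base spacing occurred in 0 of the 10 windows and in 6.95% of the 32851 windows in the table. The 3-base spacing occurred in 2 of the 10, those of Cish and Socs3, and in 8.30% of all windows. Cish held it at positions 1 and 12 counted from the first transcribed base, as TTCCTGGAA and TTCTTGGAA, and Socs3 held it once, 154 bases before the start, as TTCTTAGAA. The 3 inhibitors' promoters are printed to set the gene with a pair of matches (Cish) beside the one with a match but no passing response in shGFP cells (Socs3) and the one with the largest response and no match in this window (Socs1). Each runs 5′ to 3′ on the strand of its gene, with matches in capitals, as placed in mm9 at chr9:107198740-107199009 (plus strand, 250 bases before and 20 after the start), chr11:117830681-117830930 (minus strand) and chr16:10785630-10785879 (minus strand).
Cish: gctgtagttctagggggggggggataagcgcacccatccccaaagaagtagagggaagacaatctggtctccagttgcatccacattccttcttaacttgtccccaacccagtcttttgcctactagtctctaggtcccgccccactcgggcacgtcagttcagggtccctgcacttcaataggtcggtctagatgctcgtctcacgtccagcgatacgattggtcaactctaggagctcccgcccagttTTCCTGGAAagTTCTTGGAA
Socs3: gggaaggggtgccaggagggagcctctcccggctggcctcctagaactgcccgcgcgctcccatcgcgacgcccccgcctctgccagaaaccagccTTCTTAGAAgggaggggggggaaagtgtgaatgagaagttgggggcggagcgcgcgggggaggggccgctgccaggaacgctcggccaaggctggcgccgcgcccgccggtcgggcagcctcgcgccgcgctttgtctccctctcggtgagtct
Socs1: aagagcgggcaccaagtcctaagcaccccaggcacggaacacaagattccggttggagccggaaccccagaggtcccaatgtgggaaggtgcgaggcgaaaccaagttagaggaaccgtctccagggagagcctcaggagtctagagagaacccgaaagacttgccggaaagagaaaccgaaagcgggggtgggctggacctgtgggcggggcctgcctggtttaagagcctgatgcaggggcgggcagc
A match describes letters in the window and not binding, and its absence says nothing of sites elsewhere. The G and C content of these stretches was 54.1% for Cish, 71.6% for Socs3 and 61.2% for Socs1.

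Whether the knockdown altered the response to IL4 was tested as the difference between the IL4 effects of the 2 lines. It passed in 3 of the 9 genes, 1 with a more positive and 2 with a more negative response in shKDM1A cells, where 6.13% of all genes tested passed (3.56% more positive, 2.57% more negative). For Cish the difference was -0.19 (SE 0.03, limma adjusted p = 0.000781), from equal levels in the untreated lines. For Socs1 it was -0.33 (SE 0.07, limma adjusted p = 0.0149), with shKDM1A cells higher when untreated and lower when treated. For Il13ra1 it was 0.26 (SE 0.05, limma adjusted p = 0.0102), and the untreated shKDM1A libraries already lay below the IL4-treated shGFP libraries. These 3 differences passed with each of the 16 libraries left out in turn. For the other 6 genes the differences did not pass. The interval of Il2rg is given above. Those of the rest reached from -0.19 to 0.0077 for Jak3, from -0.16 to 0.03 for Il4ra, from -0.14 to 0.02 for Jak1, from -0.10 to 0.04 for Stat6 and from -0.08 to 0.27 for Socs3. The response of Jak3, past the threshold in shGFP cells only, was thus not shown to differ between the lines (limma adjusted p = 0.261).

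**Figure D4:**
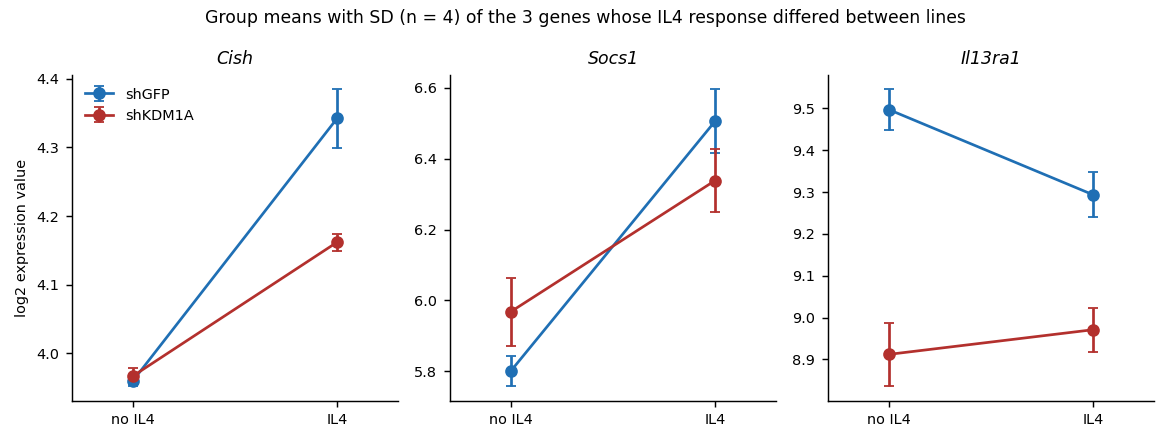
Group means of the log2 expression value (y axis) with SD (n = 4) of Cish, Socs1 and Il13ra1 without and with IL4 in shGFP (blue) and shKDM1A cells (red). The lines start together for Cish (3.96 and 3.97), cross for Socs1 and stay apart for Il13ra1.

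The other genes of the pathway were read from lists, whose counts stand beside the shares of all genes tested that passed. These shares were 26.9% with IL4 in shGFP cells and 27.1% in shKDM1A cells. With the knockdown they were 38.2% without and 40.7% with IL4, and for the difference in response 6.13%. No list was tested as a set. The median differences of the lists with IL4 in shGFP cells were -0.03 for the other JAKs and STATs, -0.01 for the other SOCS genes, 0.03 for the phosphatases and PIAS genes, -0.02 for the IRS and PI3 kinase branch and -0.0099 for the other gamma chain family receptors. Among 7 tested kinases and STAT factors outside the set, IL4 in shGFP cells raised 1 and lowered 3. The one that rose was Jak2, the kinase that can serve the type II receptor, by 0.55 (SE 0.05, limma adjusted p = 2.12e-07), from a mean of 9.01 to 9.56, and it rose by 0.41 (SE 0.05, limma adjusted p = 7.51e-06) in shKDM1A cells, where 4 of the 7 fell. Beside it, the difference in shGFP cells was 0.02 for Jak1 and 0.17 for Jak3. The knockdown raised 5 of the 7 without IL4 and 3 with IL4 and lowered 1 in each state. Its largest change was in Stat2, a factor of the type I interferon pathway, by 0.55 (SE 0.03, limma adjusted p = 1.52e-10) without IL4 and 0.60 (SE 0.03, limma adjusted p = 5.18e-11) with IL4. By limma the IL4 effect differed between the lines in 0 of these 7 genes, and 1, Tyk2, had an unadjusted p under 0.05.

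Among the other inhibitors, 4 of 10 phosphatase and PIAS genes rose with IL4 in shGFP cells, and in shKDM1A cells 4 rose and 1 fell. Inpp5d, which encodes the inositol phosphatase SHIP1 that opposes PI3 kinase, led both, at 0.30 (SE 0.02, limma adjusted p = 1.05e-08) and 0.31 (SE 0.02, limma adjusted p = 7.79e-09). The knockdown raised 1 and lowered 4 of the 10 without IL4, where 38.2% of all genes tested passed. With IL4 it raised 2 and lowered 6, against 40.7% of all genes. Pias1, a SUMO ligase, changed most, by 0.38 (SE 0.02, limma adjusted p = 1.01e-09) and 0.34 (SE 0.02, limma adjusted p = 3.98e-09). By limma 0 of the 4 other SOCS genes tested changed with IL4 in shGFP cells, 0 also at an unadjusted p under 0.05, and 1, Socs4, fell in shKDM1A cells by 0.14 on the log2 scale (SE 0.04, limma adjusted p = 0.0228). In the knockdown, 1 of these 4 was lower in each state, Socs5 without IL4 (-0.15, SE 0.03, limma adjusted p = 0.000173) and Socs4 with IL4 (-0.20, SE 0.04, limma adjusted p = 0.00134). Socs2 did not pass the filter and was not tested.

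In the IRS and PI3 kinase branch, which Irs2 would feed, 17 of 18 genes passed the filter, Irs1 being the exception. IL4 raised 2 and lowered 3 of them in shGFP cells, the largest change being in Pik3r5, a regulatory subunit (-0.20, SE 0.03, limma adjusted p = 3.05e-05). In shKDM1A cells it raised 2 and lowered 6, led by the catalytic subunit Pik3cg (-0.17, SE 0.04, limma adjusted p = 0.00176). The knockdown raised 1 and lowered 3 without IL4, where 38.2% of all genes tested passed. With IL4, against 40.7% of all genes, it raised 5 and lowered 4, led by the regulatory subunit Pik3r1 (-0.25, SE 0.06, limma adjusted p = 0.00170). The IL4 effect differed between the lines in 1 of the 17, the adaptor Dok2 (0.18, SE 0.04, limma adjusted p = 0.0171).

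Of 7 receptor chains listed with the common gamma chain family, 4 passed the filter, and Il2ra, Il2rb and Il9r did not. Il7r fell with IL4 in shGFP cells (-0.14, SE 0.04, limma adjusted p = 0.00666) and in shKDM1A cells (-0.26, SE 0.04, limma adjusted p = 3.62e-05). The knockdown lowered 2 of the 4 without IL4 and 3 with IL4, where 18.4% and 19.8% of all genes tested were lower. Crlf2, the TSLP receptor chain, which pairs with the IL7 receptor chain and not with the common gamma chain, fell most, by 0.28 and 0.31 on the log2 scale (SE 0.05, limma adjusted p = 0.000248 and 9.28e-05). The ligand genes Il4 and Il13 did not pass the filter. The decoy receptor Il13ra2, which binds IL13 without signalling through JAKs, rose slightly with IL4 in both lines (0.15 and 0.17, SE 0.02, limma adjusted p = 0.000177 and 6.69e-05) and was lower in shKDM1A cells (-0.10 and -0.08, SE 0.02, limma adjusted p = 0.00414 and 0.0129).

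**Figure D5:**
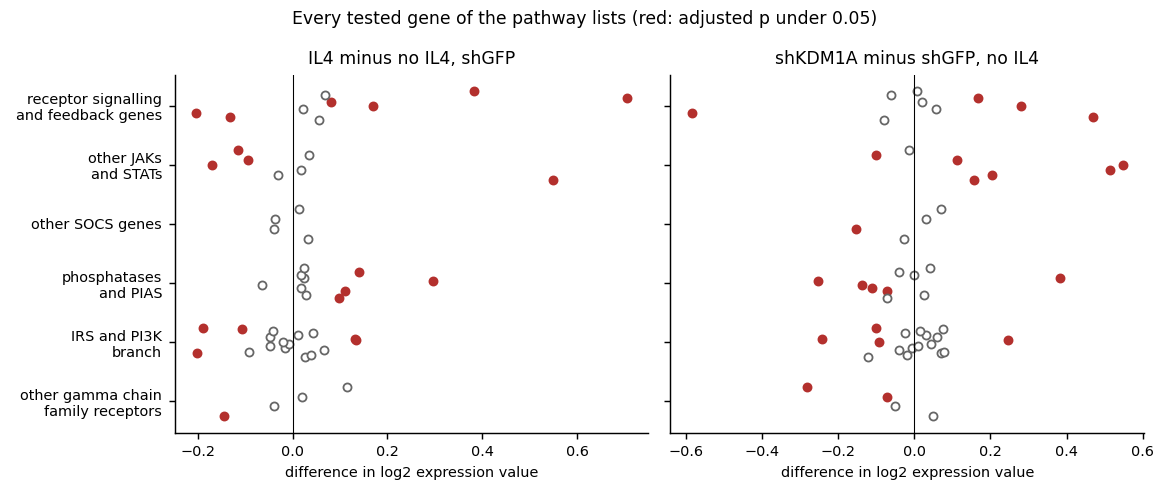
Differences in log2 expression value (x axis) of every tested gene of 6 pathway lists, for IL4 in shGFP cells (left) and for shKDM1A against shGFP cells without IL4 (right), red where the adjusted p passed. The 2 highest points on the left are Socs1 (0.71) and Jak2 (0.55), and on the right Il13ra1 (-0.58) is the lowest and Stat2 (0.55) the highest.

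At the end of the pathway, 17 of 28 textbook IL4 target genes passed the filter. Retnla, Chil3, Chil4, Ccl17, Ccl22, Ccl24, Alox15, Fcer2a, Ch25h, Cdh1 and Cd209a did not, so the counts and medians leave them out. The list also holds Ptgs1 and Flt1, IL4 target genes featured in the paper on these data. IL4 raised 13 and lowered 1 of the 17 in shGFP cells, with a median difference of 0.33. In shKDM1A cells it raised 12 and lowered 1, with a median of 0.43. Ptgs1, a prostaglandin synthase, rose most in shGFP cells (1.77, SE 0.04, limma adjusted p = 7.58e-15), and Clec7a, a fungal pattern receptor, in shKDM1A cells (1.12, SE 0.05, limma adjusted p = 2.61e-11). The knockdown raised 1 and lowered 7 of the 17 without IL4 and raised 4 and lowered 8 with IL4, Ptgs1 falling most (-1.21 and -1.91, SE 0.04). In these 2 comparisons 38.2% and 40.7% of all genes tested passed. The IL4 effect differed between the lines in 4 of the 17, 2 in each direction, most in the mannose receptor gene Mrc1 (-0.82, SE 0.05, limma adjusted p = 3.57e-08).

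Over the 16 libraries, which fall into 4 groups, the gene whose pattern was most like each of these was named by Pearson's r as a description. Cish was most like Rnf180 (r = 0.985), Il2rg like the interferon-inducible gene Ifi27l2a (r = 0.988), Il13ra1 like the bacterial lipopeptide receptor gene Tlr2 (r = 0.973) and Jak3 like the RNA editing gene Apobec1 (r = 0.972). Socs1 was most like Myo1g (r = 0.963) and Il4ra like Laptm5 (r = 0.902). The lowest values were those of Stat6, Jak1 and Socs3, at r = 0.889 with Acvr1, 0.880 with Pfas and 0.821 with Nosip.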

How the data were processed

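RNA-seq values of 16 RAW cell libraries were used, grouped by their labels. Per the file headers, the authors used HOMER to count exonic tags of RefSeq genes (mm9), on both strands and with 1 row kept per gene, after alignment with HISAT2 and Bowtie2, and deposited 1 log2 value per gene and library from a DESeq2 step. Versions and the transformation are not given in the sources used here. The fold change and p-value columns that the authors deposited, all that the BMDM table holds, were not used, nor were the ChIP-seq, ATAC-seq, CUT&Tag and 4C-seq samples. Decimals are commas.

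The 12905 genes that reached 1 in 4 or more libraries were fitted with limma 3.58.1 in R 4.3.3 (group means of 4 groups, eBayes, Benjamini-Hochberg over all genes, threshold 0.05), with no pseudocount since values already were logarithms. Moderated values carry no counting interval, so precision rests on 4 libraries per group. Tested on simulated data for IL4 in shGFP cells, the fit recovered 96 of 100 changes of 0.25 and 100 of 100 changes of 0.5, with 9 false calls among 12905 genes. For the difference in IL4 response it recovered 79 of 100 and 98 of 100, with 10 false calls. Levels per kb subtract log2 of transcript length. Figures were drawn with matplotlib. Every gene of the set is described; of each other list (JAK-STAT, SOCS, phosphatase and PIAS, IRS and PI3 kinase, gamma chain family, ligands and decoy, textbook IL4 targets) the called gene with the largest change per comparison is named, except 1 that is not reported here. The genes and lists were chosen with earlier results of these data known. Alternatives were the filter, median centring, quantile normalization, a trended prior, a replicate block, the groups in the model, a fold limit and leaving out each library.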

Additional observations from a re-analysis of the deposited data

Results flagged for a closer look

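In 3 of the 9 genes the response to IL4 differed between the lines by the test of the difference itself: Cish (-0.19) and Socs1 (-0.33) rose less in shKDM1A cells, and for Il13ra1 the response was more positive there (0.26). Of 36 groups of 4 libraries, 3 held a library far from the other 3 by Dixon's 95% criterion, and chance gives about 1 in 20. Jak1 was at 11.59 in shGFP replicate 3, against 11.56 in the other 3. Stat6 was at 12.08 in the same library, against 12.03 in the others. Jak3 was at 8.39 in IL4-treated shGFP replicate 3, against 8.27 to 8.29 in the others.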

How the results depend on the processing

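Values of the 9 genes were recomputed 778 times, and 724 kept their direction and their side of the threshold. A value past the threshold reversed in 0 cases. When calls also had to exceed 0.5 in absolute log2 difference, the genes called among all tested fell to 174 (IL4 in shGFP cells), 141 (IL4 in shKDM1A cells), 337 (knockdown without IL4), 319 (knockdown with IL4) and 17 (difference in response), from 3466, 3497, 4927, 5255 and 791. Among the 9 genes this limit ended 21 of 23 calls, all 3 differences in response included, and left 2, Socs1 with IL4 in shGFP cells (0.71) and Il13ra1 between the untreated lines (-0.58). Leaving out 1 library gave 2975 to 3202, 3018 to 3539, 4419 to 4592, 4697 to 5214 and 530 to 1104. Correlations of same-numbered libraries ran from -0.34 to 0.27, with 3 of 24 over 0.1, so the numbers were not taken to pair libraries. The own number matched best in 22 of 48 comparisons, against 12 if numbers carried nothing, a hint from the data that not every library shared. With a replicate block the counts were 3430, 3459, 4882, 5212 and 732. Under the replicate block Socs3 with IL4 in shKDM1A cells had an adjusted p of 0.0839, and Il4ra in untreated shKDM1A cells 0.0393. With no filter Socs3 had 0.0956. Quantile normalization took Socs1 between the untreated lines to 0.13 (adjusted p = 0.0800) and Il4ra to -0.12 (adjusted p = 0.00583), and median centring took Stat6 with IL4 in shKDM1A cells to an adjusted p of 0.0475. With only the groups compared, Il4ra between the untreated lines had an adjusted p of 0.0391. These are limma values, and the causes were not tested. Differences that did not pass changed sign near 0: Stat6 between the lines was -0.0080 without IL4 under quantile normalization and 0.00063 with IL4 under median centring, and Jak1 with IL4 was -0.029 under quantile normalization. Leaving out 1 library, Il4ra with IL4 in shKDM1A cells ran from -0.036 to 0.012, Socs3 between the lines from -0.096 to 0.00080 without IL4 and from -0.0058 to 0.080 with IL4, Jak1 from -0.024 to 0.028 and Stat6 from -0.028 to 0.0045 with IL4, and the difference in response of Il2rg from -0.030 to 0.012. Scaling moved the median of all genes by at most 0.010. Requiring a value of 5 left Cish untested. The planned comparison in BMDMs was not run.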
